A study of Homo sapiens with 9 samples.

Results

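The mitochondrial ribosomal protein genes were taken as the protein-coding GENCODE genes on hg19 whose symbol begins with MRPL or MRPS and a digit, which gave 78 of 20163 protein-coding genes, 49 of them MRPL and 29 MRPS. The mitochondrial ribosome translates the few mRNAs of the mitochondrial genome, which code for subunits of the respiratory chain and the ATP synthase. Its RNAs come from mitochondrial DNA, but its proteins are encoded in the nucleus, made in the cytosol and imported. Some of them have bacterial counterparts and others are found in mitochondria only, and erythroid cells depend on the respiratory chain and on mitochondrial heme synthesis. By present structural use, 51 of the 78 genes code for large-subunit proteins (MRPS18A and MRPS30 among them in spite of their symbols), 26 for small-subunit proteins, and MRPS36 for a protein now assigned to a dehydrogenase complex and not to the ribosome.

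The libraries were H3K4me3 CUT&RUN, in which an antibody against trimethylated lysine 4 of histone H3, a mark of active promoters, brings a nuclease to the chromatin and the released fragments are sequenced. All 9 came from HEL cells, an established human erythroleukemia line grown in RPMI with FBS, in which CRISPR guides against METTL3, METTL14 or WTAP, subunits of the m6A RNA methyltransferase, had been used (the METTL3-KO, METTL14-KO and WTAP-KO groups, each of 2 libraries), or a non-targeting guide (NTC, 3 libraries). The study asked whether promoter H3K4me3 depends on that methyltransferase. A gene was called marked in a library where a deposited peak came to within 1 kb of at least one annotated transcript start. Its value was the largest signal among those peaks, taken to be calibrated by the authors, or 0 where none was listed.

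The lists held between 21724 and 21941 peaks in the NTC libraries, 9205 and 9369 in METTL3-KO, 3169 and 5286 in METTL14-KO, and 3160 and 3673 in WTAP-KO, and gave no fragment totals, so that the sequencing depth is unknown. The lowest peak signal lay between 30.1 and 32.0 in every library, and the widest peak of any list measured 2000 bp. Of 8 erythroid and megakaryocytic marker genes, 5 (GATA1, TAL1, KLF1, LMO2 and EPOR) were marked in all 3 NTC libraries and the other 3 in some of them. Of 3 epithelial markers 0 were marked. Replicates differed in scale. Of the mitochondrial ribosomal protein genes with a peak in both libraries of a group, METTL3-KO replicate 1 was the higher at 49 of 55 and METTL14-KO replicate 1 at 23 of 27, while WTAP-KO replicate 1 was the higher at 7 of 27, and over all genes the shares were 87.3%, 88.9% and 24.3%.

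The stretches of promoter below belong to the members on which the results turn, with the largest NTC signal (MRPS12), a peak in all 9 libraries (also MRPS18A and MRPL11), an NTC peak and no KO peak (MRPL19, MRPS14 and MRPL44), a peak in NTC and METTL3-KO only (MRPL16), and a peak in every KO library but none in NTC (MRPL57). Each is the run of up to 200 bases before the canonical start that holds no annotated exon, read 5′ to 3′ on the strand of the gene from the hg19 genome (GRCh37). Capitals mark matches, on either strand, to the motifs counted further down.
MRPS12, chr19:39421404-39421583, plus strand: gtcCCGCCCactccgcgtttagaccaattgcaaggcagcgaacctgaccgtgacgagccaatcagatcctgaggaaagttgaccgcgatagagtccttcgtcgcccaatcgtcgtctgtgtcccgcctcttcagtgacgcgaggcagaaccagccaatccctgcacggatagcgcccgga
MRPS18A, chr6:43655529-43655728, minus strand: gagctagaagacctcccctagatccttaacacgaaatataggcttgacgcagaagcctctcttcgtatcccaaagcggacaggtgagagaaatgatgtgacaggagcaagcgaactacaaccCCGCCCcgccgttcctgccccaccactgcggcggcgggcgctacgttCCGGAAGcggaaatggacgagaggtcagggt
MRPL11, chr11:66206320-66206519, minus strand: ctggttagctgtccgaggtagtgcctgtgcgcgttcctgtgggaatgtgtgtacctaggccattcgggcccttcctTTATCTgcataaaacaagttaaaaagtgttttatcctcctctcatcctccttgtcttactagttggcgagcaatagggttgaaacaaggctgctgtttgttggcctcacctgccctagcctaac
MRPL19, chr2:75873709-75873908, plus strand: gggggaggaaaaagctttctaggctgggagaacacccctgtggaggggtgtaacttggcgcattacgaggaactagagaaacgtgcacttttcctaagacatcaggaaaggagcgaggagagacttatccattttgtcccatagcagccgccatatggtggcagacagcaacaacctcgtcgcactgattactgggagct
MRPS14, chr1:174992562-174992761, minus strand: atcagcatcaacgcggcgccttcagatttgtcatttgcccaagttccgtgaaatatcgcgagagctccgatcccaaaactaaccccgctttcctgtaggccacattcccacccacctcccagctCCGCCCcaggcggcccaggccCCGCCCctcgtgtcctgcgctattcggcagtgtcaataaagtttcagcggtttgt
MRPL44, chr2:224821980-224822179, plus strand: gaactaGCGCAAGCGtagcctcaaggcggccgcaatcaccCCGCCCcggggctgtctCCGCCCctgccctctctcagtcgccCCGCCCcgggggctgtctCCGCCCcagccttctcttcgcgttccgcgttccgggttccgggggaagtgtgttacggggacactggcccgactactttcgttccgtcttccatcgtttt
MRPL16, chr11:59578252-59578451, minus strand: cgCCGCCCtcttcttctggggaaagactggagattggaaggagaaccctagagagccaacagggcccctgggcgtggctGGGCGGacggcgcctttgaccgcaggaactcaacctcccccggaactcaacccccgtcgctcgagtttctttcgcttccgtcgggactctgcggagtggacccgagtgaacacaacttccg
MRPL57, chr13:21750692-21750796, plus strand: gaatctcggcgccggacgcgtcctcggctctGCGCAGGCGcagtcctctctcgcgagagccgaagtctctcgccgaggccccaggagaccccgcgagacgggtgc

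In NTC cells most mitochondrial ribosomal protein genes carried a strong promoter peak. A peak was listed at 67, 65 and 64 of the 78 genes in the NTC libraries, and 61 (78.2%) were marked in all 3, against 42.1% of all protein-coding genes. The mean NTC signal of these 61 genes had a median of 9069.8 and ran from 625 at MRPL41, a large-subunit protein, to 22608 at MRPS12, a protein of the decoding centre, while the other marked genes had a median of 5131. Of the 61, 15 lay in the highest decile of all 8495 genes marked in all 3 NTC libraries and 42 in the upper 5 deciles. Their NTC peaks were also wider, with a median of 1368 bp against 1092 bp at other genes. A second coding gene on the opposite strand had a start within 1 kb of the canonical start at 20 of the 61 (32.8%), against 16.6% of other marked genes, so that some of these peaks are shared. MRPL46 and MRPS11 face away from each other and carried one and the same peak in every library.

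In the KO groups fewer of these promoters kept a peak. A peak was listed at 62 and 59 members in METTL3-KO, at 45 and 29 in METTL14-KO and at 29 and 33 in WTAP-KO. The group means were 65.3 ± 1.53 (SD, n = 3) in NTC, 60.5 ± 2.12 (SD, n = 2), 37.0 ± 11.3 (SD, n = 2) and 31.0 ± 2.83 (SD, n = 2), or 92.6%, 56.6% and 47.4% of NTC. The METTL3-KO libraries overlapped none of the NTC libraries in this count but lay within a few genes of them, and both WTAP-KO libraries lay below both METTL3-KO libraries. Over all protein-coding genes the corresponding numbers of marked genes were 71.8%, 36.2% and 25.6% of NTC. The heat map of all members by library shows 21 promoters coloured in all KO columns, 15 of them also in all NTC columns, 1 (MRPL39) in 1 NTC column and 5 in none.

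**Figure D1:**
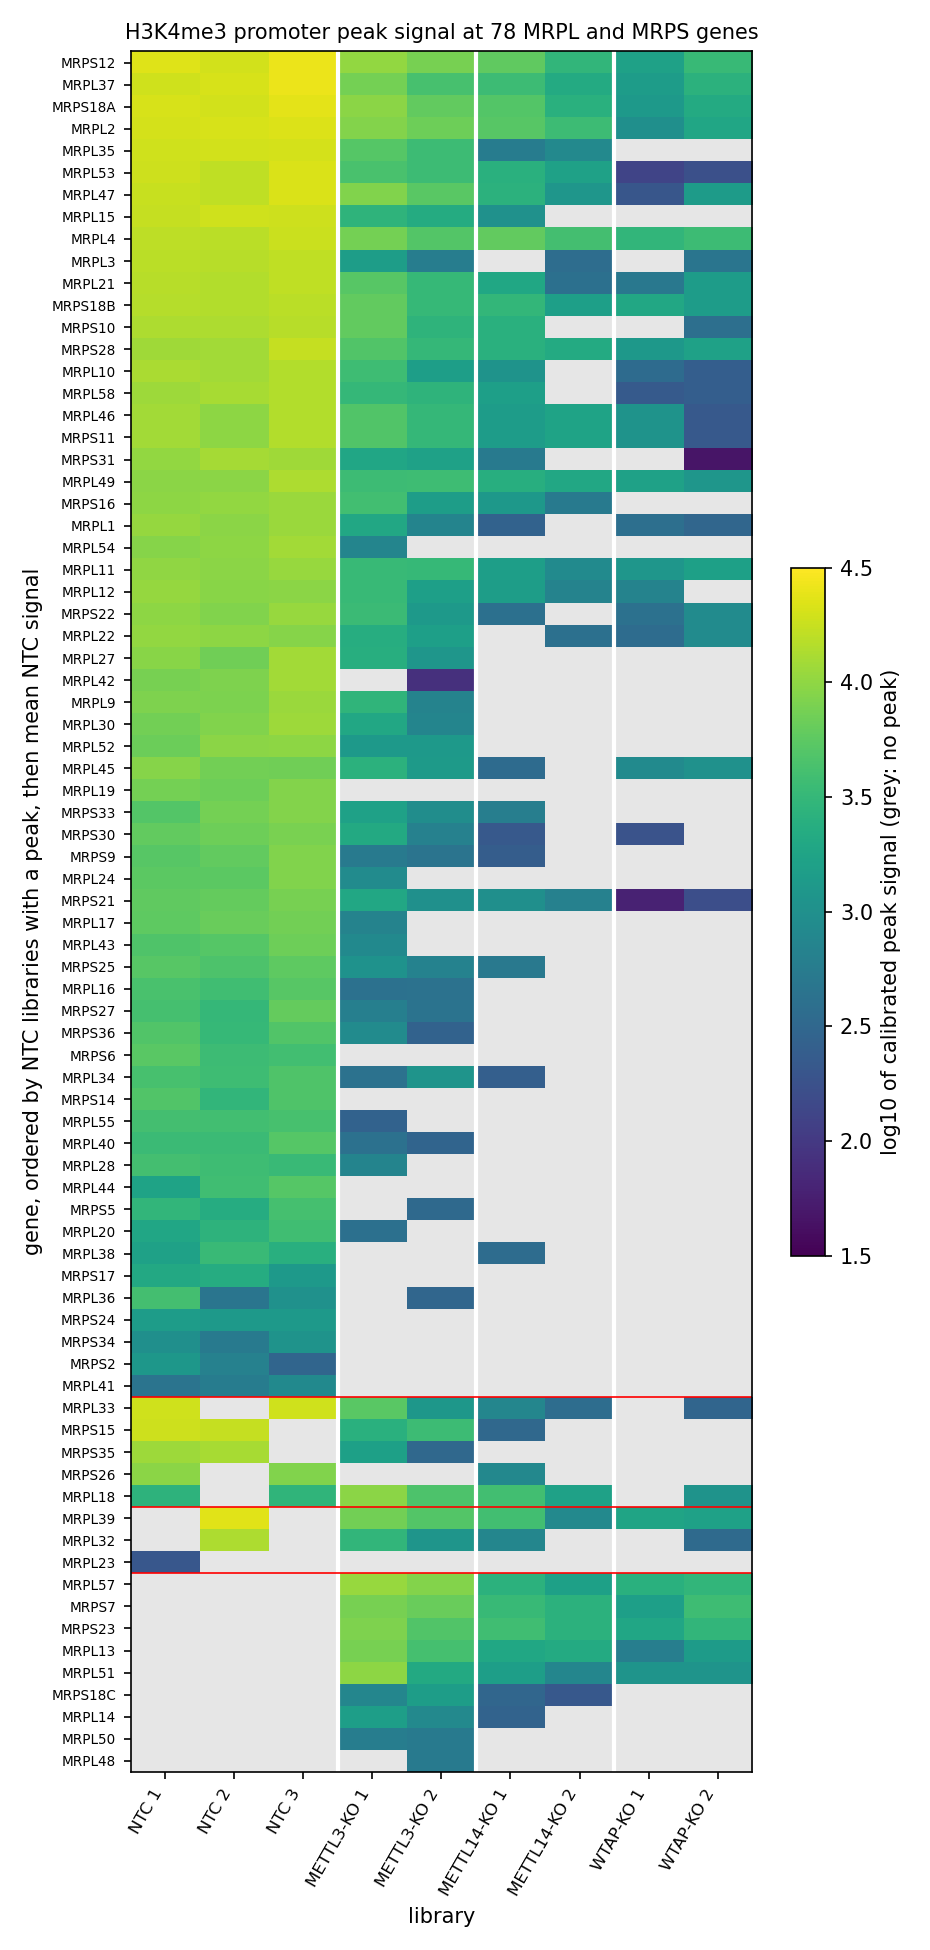
Each row is one of the 78 MRPL and MRPS genes and each column one library, with colour giving log10 of the calibrated signal of the largest promoter peak and grey a gene with no listed peak. Red lines separate the 61 genes marked in all 3 NTC libraries, the 5 marked in 2, the 3 marked in 1 and the 9 marked in none, and 15 of the 61 have a peak in every KO library.

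Of the 61 members marked in all 3 NTC libraries, 10 (16.4%) had a peak in neither METTL3-KO library, 27 (44.3%) had none in METTL14-KO and 35 (57.4%) had none in WTAP-KO. Among all 8495 marked genes these shares were 46.3%, 73.3% and 84.9%. No KO library had a peak at 9 of the 61 members (14.8%), against 45.8% of all marked genes, and every KO library had one at 15 (24.6%), against 7.83%. The shares depended on the NTC signal, so members were also set beside other genes in the same decile of mean NTC signal. At equal NTC signal the other genes lacked a peak in 29.9% of cases in METTL3-KO, 59.9% in METTL14-KO, 73.5% in WTAP-KO and 29.5% in all KO libraries, in each case above the members' share. This is a description of the list with no test, because the genes were picked as a group and some share a promoter.

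The same held library by library. A peak was kept at 48 and 44 of the 61 members in the METTL3-KO libraries (78.7% and 72.1%), where other genes of equal NTC signal kept 64.8% and 62.2%. The METTL14-KO libraries kept 32 and 20 members (52.5% and 32.8%), against 38.9% and 23.7%. The WTAP-KO libraries kept 23 and 24 members (37.7% and 39.3%), against 21.0% and 23.0%. These counts rested in part on replicate 1. Without METTL3-KO replicate 1, 17 members lacked a METTL3-KO peak and 16 lacked any KO peak, and without METTL14-KO replicate 1, 41 lacked a METTL14-KO peak. The shares expected at equal NTC signal were then 37.8%, 36.3% and 76.3%, and the members' shares were 27.9%, 26.2% and 67.2%.

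**Figure D2:**
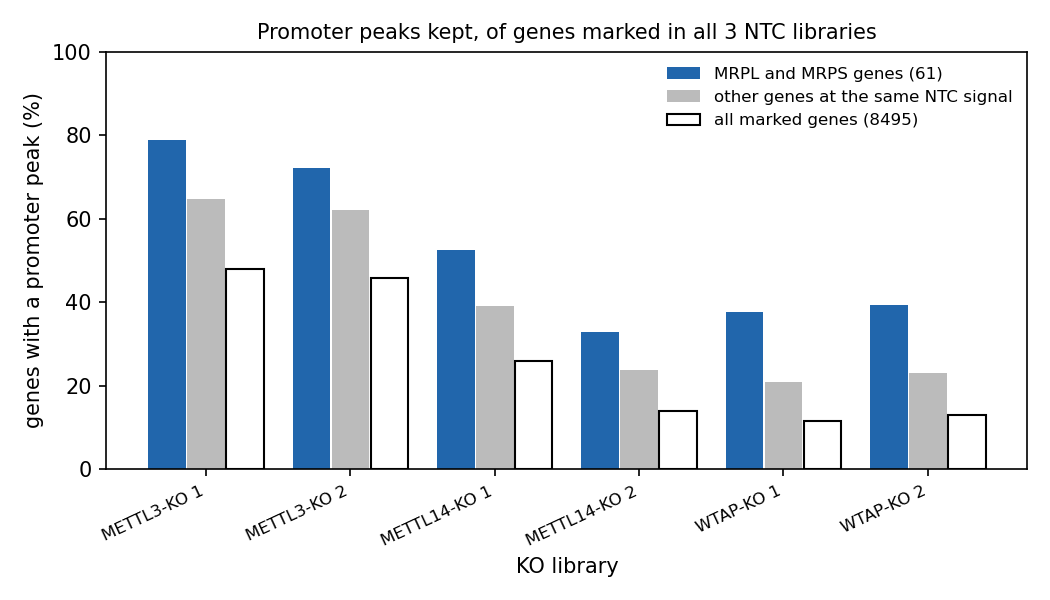
Bars give, for each KO library, the percentage of genes marked in all 3 NTC libraries that still had a promoter peak: the 61 MRPL and MRPS genes, other genes weighted to the same deciles of NTC signal, and all 8495 marked genes. The bar of the MRPL and MRPS genes is the highest of its 3 in each of the 6 libraries, from 32.8% to 78.7%.

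By decile of NTC signal, all 15 members in the highest decile kept a METTL14-KO peak, against 79.6% of the other genes there, and 13 of them (86.7%) kept a WTAP-KO peak, against 67.5%. In the ninth decile, 8 and 7 of 9 members kept one (88.9% and 77.8%), against 52.7% and 30.8%. In the eighth decile 3 of 8 members (37.5%) kept a METTL14-KO peak, below the 40.3% of other genes, and in the fifth 1 of 8 (12.5%), below 14.4%. In METTL3-KO, all members of the 3 highest deciles kept a peak, as did 83.7% to 97.6% of other genes. Below the seventh decile, 0 members kept a WTAP-KO peak and 3 kept a METTL14-KO peak, where at most 5.31% and 28.0% of other genes did in any decile. With only 2 to 15 members in a decile, single genes move these shares strongly. In the third decile 1 of 2 members made up the 50% with a METTL14-KO peak.

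**Figure D3:**
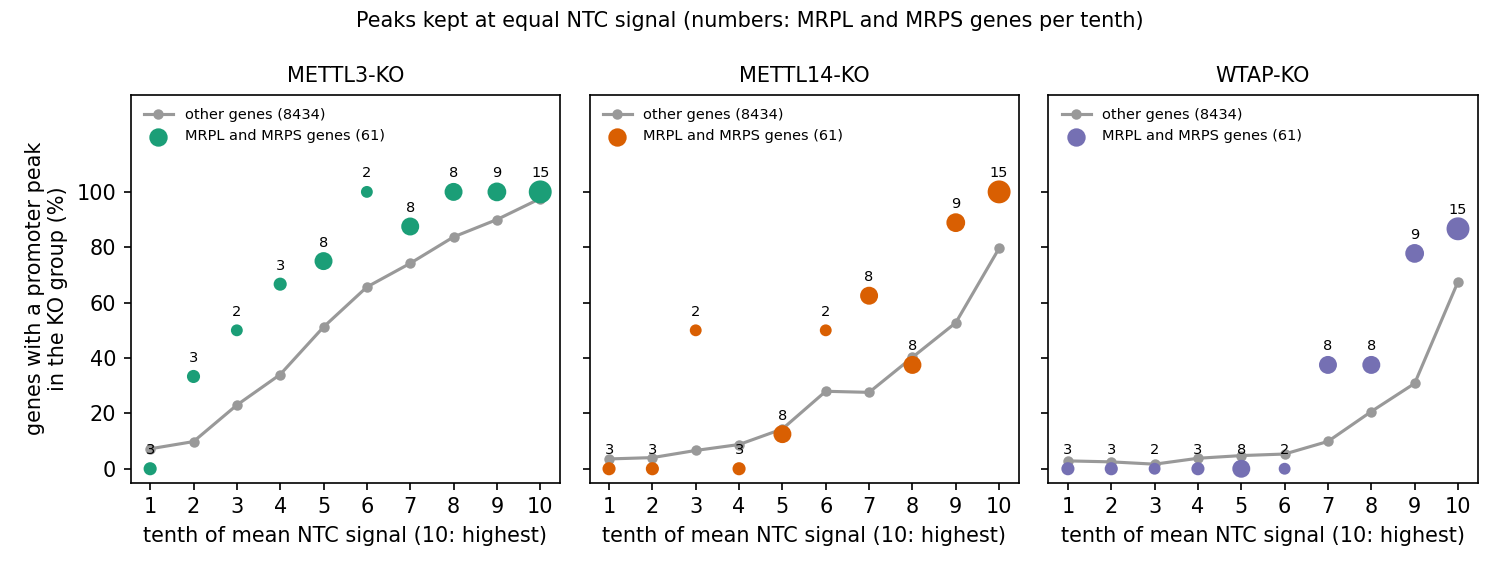
The horizontal axis is the decile of mean NTC signal among the 8495 genes marked in all 3 NTC libraries (10 is the highest) and the vertical axis the percentage with a peak in at least one library of the KO group. Coloured points are the MRPL and MRPS genes, with their number beside each point, and grey points and lines the other 8434 genes. In WTAP-KO the coloured points are at 0 up to the sixth decile and above the grey line from the seventh on.

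Signals were then tested gene by gene with limma over all 12037 genes with a peak in at least 2 libraries, on the log2(signal + 30.1) scale, with Benjamini-Hochberg adjustment over all of them. Of the 78 members 76 entered, and MRPL23 and MRPL48, with a peak in 1 library each, did not. All 3 KO groups share the NTC libraries, so the comparisons are not independent of each other, and with no statement that libraries came from separate cultures the p-values measure the spread between these libraries. In METTL3-KO 45 of the 76 members were lower than in NTC, or 59.2%, against 60.9% of all genes tested. In METTL14-KO 60 were lower (78.9%, against 68.8%) and in WTAP-KO 61 (80.3%, against 69.7%). In the mean of all KO groups 61 were lower than in NTC (80.3%, against 73.0%), and these were the 61 members marked in all 3 NTC libraries, at each of which every KO library lay below every NTC library, as at 96.8% of all genes so marked. When only genes marked in all 3 NTC libraries were tested, 48 of 61 members were lower in METTL3-KO (78.7%, against 87.9% of such genes). All 61 were lower in METTL14-KO, WTAP-KO and all KO groups (100%, against 98%, 98.9% and 98.6%), shares close to each other. Genes entered this test through their NTC peaks, which favours lower KO values, so these calls add no support. In the fit of all genes, 61 of 76 members and 8495 of 12037 genes were marked in all 3 NTC libraries. The part of this in the shares lower there was not tested. In the fit of all 12037 genes, fewer members were higher than in NTC: 8 in METTL3-KO (10.5%, against 14.0% of all genes), 6 in METTL14-KO (7.89%, against 8.38%), 5 in WTAP-KO (6.58%, against 6.81%) and 8 for all KO groups (10.5%, against 14.3%), in each case members without an NTC peak. Such members entered the test through KO peaks alone, so these calls add no support. In this main fit the shares of members lower in METTL3-KO, and higher in METTL14-KO and WTAP-KO, were close to those of all genes. The share lower in METTL3-KO moved with the setting. It was 77.6% (against 67.2%) with 10 times the pseudocount and 52.6% (against 58.7%) with the replicate number as a block.

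The median log2 change of the members was -2.44 in METTL3-KO, -5.47 in METTL14-KO and -5.68 in WTAP-KO, beside medians of -3.48, -5.57 and -5.98 over all genes tested. A gene with no listed peak enters at the pseudocount, so the size of these medians depends on it. Over all genes tested, the METTL14-KO median was -8.1 with 0.1 times the pseudocount and -3.1 with 10 times. The WTAP-KO median was -9.0 and -3.3. The directions of these medians hold on the calibrated scale. When the libraries were instead centred on the genes marked in all 9, which moved the median change of all genes for all KO groups from -5.30 to -3.62, the members lower in METTL3-KO, METTL14-KO, WTAP-KO and all KO groups numbered 28, 36, 38 and 39. These were 36.8%, 47.4%, 50% and 51.3% of the members tested, now below the 50.6%, 57.8%, 62.5% and 65.1% of all genes, so that the order of members and all genes for METTL14-KO, WTAP-KO and all KO groups turned with the scaling. Of the 61 members marked in NTC, 53 then still had a lower estimate in the KO groups and 8 a higher one. All 8 were among the members with a peak in all 9 libraries, and these belong to the genes on which that centring was based.

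The 15 members with a peak in every library came from both subunits, with 10 of the 40 large-subunit and 5 of the 20 small-subunit genes marked in all 3 NTC libraries. MRPS12, the uS12 protein of the decoding centre, had 22615, 19603 and 25606 in the NTC libraries, 10221 and 7655 in METTL3-KO, 5842 and 3003 in METTL14-KO and 1653 and 3289 in WTAP-KO. Its peak in NTC replicate 1 spanned chr19:39420421-39422157 and also covered the start of SARS2, the mitochondrial seryl-tRNA synthetase, 181 bp away on the other strand. Every KO library lay below every NTC library, while METTL14-KO and WTAP-KO overlapped. The change for all KO groups was -2.34 ± 0.31 (SE) on the log2 scale (limma, adjusted p = 0.000391), but 0.27 (adjusted p = 0.11) after centring, and it missed the threshold (adjusted p = 0.065) when only peaks that reached the median NTC peak signal were counted.

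MRPL4, a large-subunit protein near the exit tunnel, kept the largest share of its signal. It had 15863, 15615 and 18013 in the NTC libraries, 7385 and 5015 in METTL3-KO, 5953 and 4068 in METTL14-KO and 2958 and 3589 in WTAP-KO. The KO mean was 29.3% of the NTC mean, every KO library lay below the NTC libraries, and the log2 change for all KO groups was -1.83 ± 0.19 (SE) (limma, adjusted p = 0.000118). After centring the sign turned and MRPL4 stood 0.78 higher in the KO groups (adjusted p = 0.000242). MRPL53, found only in mitochondrial ribosomes, kept the smallest share at 10.9%, with 18838, 16442 and 21590.5 in the NTC libraries, 4364 and 3574 in METTL3-KO, 2526 and 1633 in METTL14-KO and 129 and 171 in WTAP-KO. In WTAP-KO its signal was the lowest of the 15 as a share of NTC, at 0.793%.

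The 3 human relatives of bacterial S18 differed. MRPS18A, which sits in the large subunit, had 20749, 19799 and 23517 in the NTC libraries, 9452 and 5950.4 in METTL3-KO, 4929.6 and 2554 in METTL14-KO and 1294 and 2149.6 in WTAP-KO. MRPS18B, a small-subunit protein, had 14617, 14306 and 15353 in the NTC libraries, 6053 and 3241 in METTL3-KO, 3106 and 1547 in METTL14-KO and 2003 and 1423 in WTAP-KO. Both were marked in every library at 20.6% and 19.6% of the NTC mean over the KO groups, a lower level (limma, adjusted p = 0.00018 and 0.000274) whose sign turned after centring (0.03 and 0.08, adjusted p = 0.741 and 0.743). MRPS18C, the third relative, had no NTC peak, 754 and 1496 in METTL3-KO, 305 and 211 in METTL14-KO and no WTAP-KO peak.

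The other members marked in all 9 libraries were MRPL2 (a protein of the peptidyl transferase region), MRPL11 (the base of the stalk that binds translation factors), MRPL21, MRPL37, MRPL46, MRPL47, MRPL49, MRPS11, MRPS21 and MRPS28. MRPL11 had 9929, 9487 and 10986 in the NTC libraries, 3289 and 3237 in METTL3-KO, 1501 and 857 in METTL14-KO and 1205 and 1599 in WTAP-KO. MRPL2 had 20105, 20763 and 21878 in the NTC libraries, 8781 and 6883 in METTL3-KO, 5275 and 3635 in METTL14-KO and 999 and 1883 in WTAP-KO. Both fell below every NTC value in every KO library, by a log2 change for all KO groups of -2.53 ± 0.24 (SE) and -2.52 ± 0.24 (SE) (limma, adjusted p = 6.87e-05 and 7.13e-05), and after centring the estimates were 0.07 and 0.08 (adjusted p = 0.729 and 0.621). MRPL49, which shares its promoter with FAU, and MRPS28 also turned sign after centring, to 0.36 and 0.09 (adjusted p = 0.273 and 0.616). Over the 15 genes the median signal was 33.2% of NTC in METTL3-KO, 13.2% in METTL14-KO and 8.06% in WTAP-KO, beside 29.0%, 13.1% and 8.55% over all 665 genes marked in all 9 libraries.

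Peaks at these genes were also narrower in the KO libraries. The mean width per gene had a median of 1698 bp in NTC, 918 bp in METTL3-KO, 546 bp in METTL14-KO and 446 bp in WTAP-KO for the 15 members, and 1498, 882, 492 and 387 bp over all 665 genes. At MRPS12 the mean width went from 1778 bp in NTC to 1366, 909 and 819 bp. Width and signal come from the same coverage and are not separate readouts. The drawing of peak extents shows the shrinkage from both sides at MRPS12 and MRPS18A, and mainly on the downstream side at MRPL11.

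**Figure D4:**
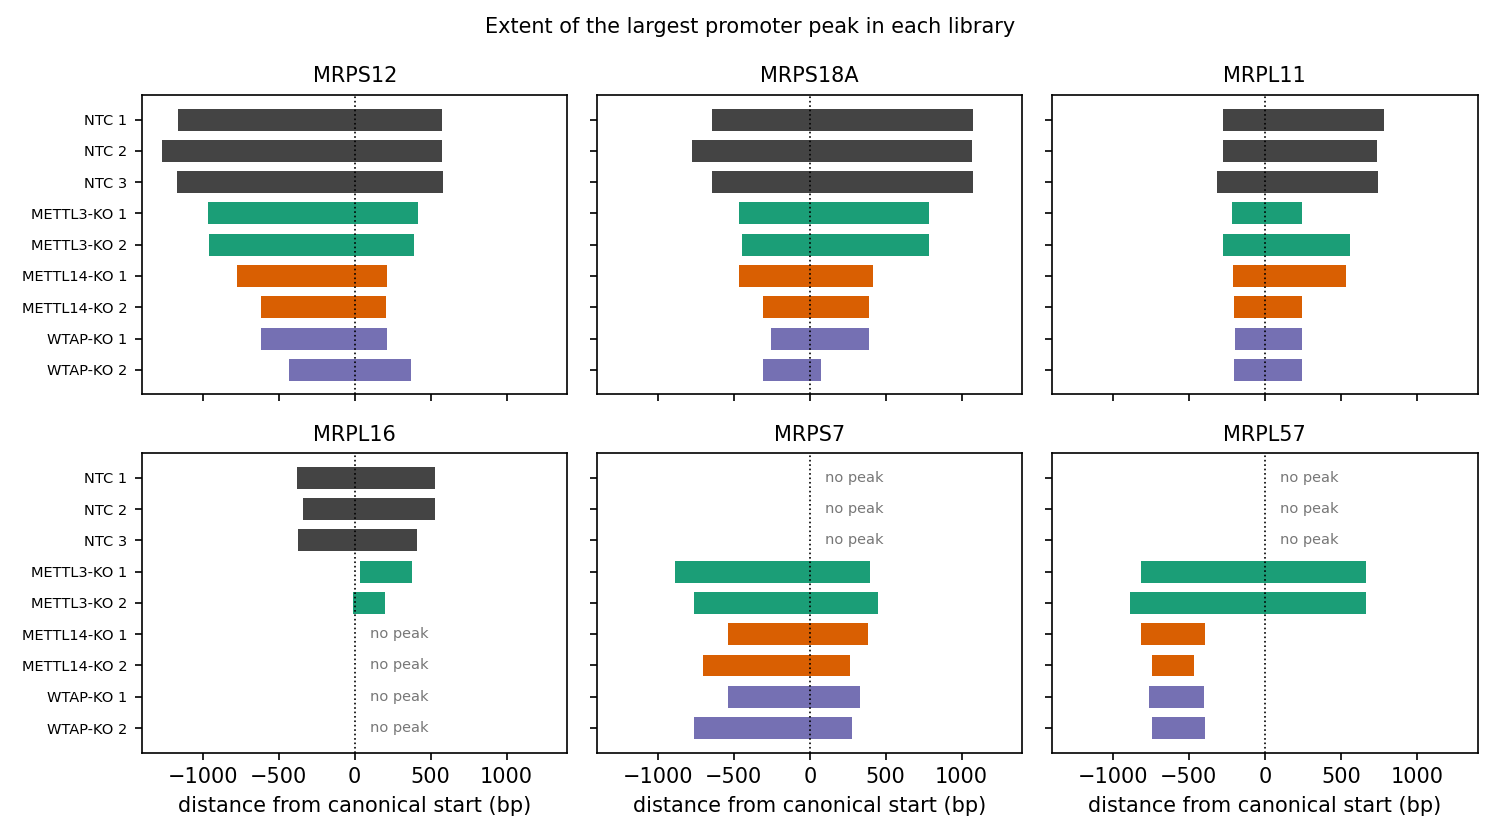
Bars show where the largest promoter peak of each library lay relative to the canonical start of 6 genes (0, dotted line), with negative distances upstream of the gene. MRPS12, MRPS18A and MRPL11 have a peak in all 9 libraries, MRPL16 in NTC and METTL3-KO only, and MRPS7 and MRPL57 in all KO libraries but none in NTC. At MRPL57 the METTL14-KO and WTAP-KO peaks do not reach the start.

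The 9 members marked in all of NTC but in none of the KO libraries were MRPL19, MRPL41, MRPL44, MRPS2, MRPS6, MRPS14, MRPS17, MRPS24 and MRPS34, with 6 small-subunit genes among them. MRPS24 falls outside the rule for named genes and is listed to complete the set. The one with the highest NTC signal was MRPL19, a large-subunit protein with a bacterial counterpart, with 7459, 6913 and 8680.1 in the NTC libraries. MRPS6 had 5430.4, 3605 and 3878 and MRPS14 had 4804, 2976 and 4766, both of them bacterial-type small-subunit proteins. MRPL44, which has a ribonuclease III fold, had 1723, 3839 and 5118. In each of these the signal was listed at 0 in all 6 KO libraries and no fold is given. The limma test placed all 9 below NTC for all KO groups, with adjusted p = 1.26e-08 for MRPL19 and 2.11e-06 for MRPL44. These genes were picked by that very pattern, and equal values in all 6 KO libraries lower the spread. The calls therefore follow from the choice and add no support. In the decile of NTC signal that holds MRPL19, 74.2% of other genes kept a METTL3-KO peak.

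The remaining members of this set were weaker. MRPS17 had 2023, 2306 and 1321 in the NTC libraries. MRPS34, a small-subunit protein whose loss in patients impairs mitochondrial translation, had 999, 539 and 1104, and MRPS2 had 1212, 649.8 and 305. MRPL41, the weakest of the 61, had 446, 579 and 848. The NTC replicates of MRPS2 ranged from 305 to 1212. MRPL42, named after its values were seen, came close to this set, with 7703, 8244 and 11975 in NTC and a single KO peak of 82.2 in METTL3-KO replicate 2.

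METTL3-KO stood above the other KO groups at many of these promoters. Against WTAP-KO and METTL14-KO averaged, 33 of the 76 members tested were higher in METTL3-KO (43.4%, against 29.5% of all genes), and 0 were lower, with 0 also at an unadjusted p under 0.05. All 33 had a peak in both METTL3-KO libraries, 9 of them had none in METTL14-KO or WTAP-KO, and 5 had none in NTC. The median difference was 2.38 on the log2 scale for members and 1.72 for all genes tested. Of the members, 65 had a higher and 2 a lower estimate, the lower ones being MRPL38 and MRPS26, named after their values were seen. The members had a higher NTC signal than other genes, and the part of that in the larger share was not tested. Without METTL3-KO replicate 1 the count was 15 of 75 (20%, against 19.7% of all genes), and after centring on genes marked in all 9 libraries it was 14 of 76 (18.4%, against 17.7%), with 1 member, MRPL4, lower. In both settings the members' share was close to that of all genes.

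The 5 members with the smallest adjusted p in this comparison all code for large-subunit proteins. MRPL52 had 6644, 9560.3 and 9651 in NTC and 1307 and 1318 in METTL3-KO. MRPL16, a bacterial-type protein, had 4380.1, 3758 and 5283 in NTC and 419 and 423 in METTL3-KO. MRPL40 had 3529, 3531 and 5065 in NTC and 416 and 296 in METTL3-KO. These 3 were listed at 0 in all METTL14-KO and WTAP-KO libraries, and their METTL3-KO values lay below all NTC values (limma, adjusted p = 3.29e-05, 3.49e-05 and 7.65e-05 for METTL3-KO against the other KO groups). MRPL50 had no NTC peak, 597 and 552 in METTL3-KO and no other peak (adjusted p = 2.84e-05). It entered the test through METTL3-KO alone. Equal values of 0 lower the spread at MRPL50 and the 3 genes before it, so their rank by p-value adds no support. MRPL35 had 19002, 19982 and 19989.7 in the NTC libraries, 5127 and 3597 in METTL3-KO, 576 and 806 in METTL14-KO and 0 and 0 in WTAP-KO. The difference was 4.88 ± 0.31 (SE) (limma, adjusted p = 6.77e-05). Its equal values of 0 in WTAP-KO also lower the spread, and the size of the difference depends in part on the pseudocount.

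A set of 9 members had no NTC peak at all: MRPL13, MRPL14, MRPL48, MRPL50, MRPL51, MRPL57, MRPS7, MRPS18C and MRPS23. Of these, 5 had a peak in every KO library. MRPL57 had 10845 and 8794 in METTL3-KO, 2711 and 1610.2 in METTL14-KO and 2564 and 2962 in WTAP-KO. MRPS7, a bacterial-type protein of the small-subunit head, had 7643 and 6483 in METTL3-KO, 3305 and 2671 in METTL14-KO and 1542 and 3701 in WTAP-KO. Both genes were higher in both METTL3-KO libraries than in any other.

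MRPS23 had 8395 and 4847 in METTL3-KO, 3752 and 2684 in METTL14-KO and 1867 and 2976 in WTAP-KO. MRPL13, a bacterial-type large-subunit protein, had 7602 and 4129.6 in METTL3-KO, 1932 and 2138 in METTL14-KO and 614 and 1391 in WTAP-KO. MRPL51 had 9713 and 2079 in METTL3-KO, 1529 and 759 in METTL14-KO and 1132 and 1139.5 in WTAP-KO. Its largest peak reached the canonical start in METTL3-KO replicate 1 only and lay upstream of it in the other KO libraries. NCAPD2 starts 94 bp away on the other strand. In all 5 the METTL3-KO libraries were the highest and the NTC libraries were listed at 0, and no fold is given. Of the 21 members with a peak in every KO library, 5 (23.8%) had none in NTC, against 39.1% of all genes with a peak in every KO library.

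The peaks of these 5 genes in the KO libraries differed in width, the widest of each gene measuring between 1288 and 1796 bp, and the nearest NTC peak lay at least 8028 bp from the canonical start. Of the 8 members marked in only some NTC libraries, MRPL33, MRPL39, MRPS15, MRPS26 and MRPS35 had NTC peaks of 1584 to 1995 bp. No list holds a peak above 2000 bp. At members marked in every NTC library the upper quartile of NTC peak width was 1712 bp, above the widths of MRPS35 (1584 and 1659 bp). At other genes so marked it was 1478 bp. MRPL39 had 0, 23036 and 0 in NTC, its only NTC peak being 1976 bp wide, and 7246 and 5029.9 in METTL3-KO. MRPS15 had 18468, 17376 and 0 with widths of 1957 and 1984 bp, and MRPL33 had 19187, 0 and 19379 with widths of 1838 and 1818 bp. Whether wider NTC peaks were left out of the lists was not tested, so a missing NTC peak at these members cannot be read as absent H3K4me3. MRPL32, with a NTC peak of 13619.5 in 1 library and a width of 1472 bp, and MRPL18 and MRPL23, with narrower peaks, did not show such widths. Apart from MRPL23, these 8 were named after their values were seen.

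The remaining 4 members without an NTC peak were weakly marked in the KO libraries. MRPL14, which lies at the interface of the subunits, had 1503 and 827 in METTL3-KO, 284 in METTL14-KO replicate 1 and no other peak. Its rise for all KO groups (limma, adjusted p = 0.0204) passed the threshold but did not when any one NTC library or METTL3-KO replicate 1 was left out (adjusted p = 0.0582 to 0.0669), and it turned to -3.87 on the log2 scale (adjusted p = 0.00234) with a 3 kb promoter window, which takes in the NTC peaks 2631 to 2668 bp away. MRPL48 had a single peak of 539 in METTL3-KO replicate 2.

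Other members with a well-known place in the ribosome gave the following values. In the stalk, MRPL10 had 13296, 12199.9 and 14265 in the NTC libraries, 3655 and 1514 in METTL3-KO, 1092 and 0 in METTL14-KO and 353 and 248 in WTAP-KO. MRPL12, which also binds the mitochondrial RNA polymerase, had 10625, 9299 and 9419 in the NTC libraries, 3314 and 1552 in METTL3-KO, 1467 and 697 in METTL14-KO and 701 and 0 in WTAP-KO. For MRPL10 and MRPL12 the log2 change for all KO groups was -4.66 ± 1.11 (SE) and -3.79 ± 1.00 (SE) (limma, adjusted p = 0.00681 and 0.0108), and -2.34 and -1.45 after centring, where neither passed (adjusted p = 0.12 and 0.346). On the calibrated scale, the limma comparison of METTL3-KO with NTC passed at neither gene (adjusted p = 0.156 and 0.179). It passed at MRPL11, the stalk base (adjusted p = 0.00299). The spread in this comparison is taken over all 4 groups, with the single 0 of MRPL10 in METTL14-KO and of MRPL12 in WTAP-KO. At each of these stalk genes both METTL3-KO values lay below every NTC value. Whether the stalk genes differ from each other in their change was not tested.

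MRPL3, beside the peptidyl transferase centre, had 15315, 14928 and 16319.9 in the NTC libraries, 1484 and 592 in METTL3-KO, 0 and 371 in METTL14-KO and 0 and 459 in WTAP-KO. The KO mean was 3.12% of NTC, below that of the 15 members marked in all libraries. MRPL45, which ties the ribosome to the inner membrane, had 8988, 7199.9 and 7144 in the NTC libraries, 2685 and 1366 in METTL3-KO, 359 and 0 in METTL14-KO and 863 and 1038 in WTAP-KO. MRPL23, at the tunnel exit, had a single NTC peak of 207 and no other. MRPS30, which by structure belongs to the large subunit, had 6036, 6887 and 7780.3 in the NTC libraries, 2080.2 and 661 in METTL3-KO, 218 and 0 in METTL14-KO and 188 and 0 in WTAP-KO.

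In the small subunit, MRPS16 had 9866, 10448 and 11197 in the NTC libraries, 3920.3 and 1491 in METTL3-KO, 1254 and 550.5 in METTL14-KO and 0 and 0 in WTAP-KO, and MRPS22 had 9739, 8597 and 10956 in the NTC libraries, 3543 and 1301 in METTL3-KO, 409 and 0 in METTL14-KO and 419 and 874 in WTAP-KO. Loss of either protein is known to cause respiratory chain deficiency in patients. MRPS27, a pentatricopeptide repeat protein, had 4096, 3107 and 6145 in NTC and 632 and 435 in METTL3-KO, and no other peak. MRPS36, which no longer counts as a ribosomal protein, had 4799.9, 3245 and 4898 in NTC and 876 and 279 in METTL3-KO, and none elsewhere. All 4 were lower for all KO groups (limma, adjusted p = 5.26e-05, 0.00407, 1.33e-06 and 7.85e-06), but MRPS22 missed the threshold after centring (-1.84, adjusted p = 0.116).

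By subunit, 4 of 40 large-subunit genes and 6 of 20 small-subunit genes marked in NTC lacked a METTL3-KO peak, 18 and 8 a METTL14-KO peak, and 22 and 12 a WTAP-KO peak. The median of the mean NTC signal was 9403 for the large-subunit and 6591 for the small-subunit genes. By origin, 6 of 37 genes with a bacterial counterpart and 4 of 23 specific to mitochondria lacked a METTL3-KO peak, 16 and 10 a METTL14-KO peak, and 21 and 13 a WTAP-KO peak, or 56.8% and 56.5% in WTAP-KO. Genes with a coding start on the opposite strand within 1 kb lacked a METTL3-KO peak in 2 of 20 cases and a METTL14-KO or a WTAP-KO peak in 10 each, and the others in 8, 17 and 25 of 41. These are counts over genes of unequal NTC signal, and no difference between the classes was tested.

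The promoter windows from 250 bases before to 50 after the canonical start were searched for short motifs on both strands. The ETS-type sequence CCGGAAG was found at 32 of the 78 members (41.0%), against 14.0% of all 20163 promoters of that length and 20.3% of those marked in all 3 NTC libraries. AAGATGGCG, of the YY1 type, was found at 13 members (16.7%), against 2.81% and 4.16%. GCGCANGCG, of the NRF1 type, was found at 15 (19.2%), against 10.9% and 15.3%. The GC box GGGCGG was at 47 (60.3%), against 60.9% and 75.3%, and the E-box CACGTG at 7 (8.97%), against 8.74% and 10.5%. CCACACCC, of the KLF1 type, was at 2 members (2.56%), against 3.25% and 2.71%, and the GATA sequence AGATAA at 3 (3.85%), against 7.23% and 4.56%. None of these motifs contains another, although matches can share bases where they adjoin. The windows of the 61 marked members held a median of 59.0% G and C, against 66.7% for all marked genes.

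Among members with a peak in all 9 libraries the ETS-type sequence was at 5 of 15, and among those without a KO peak at 1 of 9, beside 28.0% and 16.0% of all genes with these patterns. The GC box was at 7 of 15 and 8 of 9, beside 68.6% and 77.3%. In the stretches printed above, the ETS-type match of MRPS18A begins 31 bases before the start, the NRF1-type match of MRPL57 74 bases before it, and MRPL44 carries 4 GC boxes on the minus strand of the gene. MRPL19 holds no match in its stretch. These matches are descriptions of the sequence, and no binding was measured.

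Other genes of mitochondrial translation, from lists written for this work, were examined in the same way. Of 45 such genes (5 ribosomal proteins under other symbols, 11 translation factors, 12 assembly factors and 17 mitochondrial aminoacyl-tRNA synthetases), 31 were marked in all 3 NTC libraries, of which 7 lacked a METTL3-KO peak, 20 a METTL14-KO peak and 22 a WTAP-KO peak, and 7 had a peak in all 9 libraries. All 45 were tested, and for all KO groups 33 were lower (73.3%, against 73.0% of all genes) and 6 higher (13.3%, against 14.3%), while 18 were higher in METTL3-KO than in the other KO groups (40.0%, against 29.5%). Of the 5 ribosomal proteins, AURKAIP1, CHCHD1 and GADD45GIP1 had a peak in every NTC and both METTL3-KO libraries, and only AURKAIP1 had a further KO peak, in METTL14-KO replicate 1. DAP3, a GTP-binding small-subunit protein, and PTCD3 had no NTC peak. PTCD3, a pentatricopeptide repeat protein, had a peak in all 6 KO libraries, between 1466 and 13250.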

How the data were processed

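H3K4me3 CUT&RUN was measured in 9 HEL libraries. The authors aligned reads with Bowtie to hg19 and sacCer3 and used Picard (tools and builds from the submitters' processing notes, roles in part from the study's methods, versions not given in the sources used here). The deposited peak lists have no header and were read as a position and a signal per peak. The signal was taken to be calibrated to yeast spike-in DNA, a step given in the study's methods. Such signals are not counts, and depth is unknown. Starts were read as 0-based. Peaks within 1 kb of any GENCODE v44lift37 start were assigned to coding genes with Python 3.11.15, pandas 2.3.3 and numpy 2.4.6, and the largest was kept. Genes with a peak in at least 2 libraries were tested with limma 3.58.1 (R 4.3.3, trend) on log2(signal + 30.1), the smallest peak value, with all 4 groups in 1 model and Benjamini-Hochberg adjustment at 0.05. The fit was also run on simulated data in which a small part of the genes changed and no peaks were removed. That run does not test the calls at genes with values of 0. Shares at equal NTC signal weight other genes to the members' deciles of mean NTC signal. Figures were drawn with matplotlib 3.10.9.

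The members and lists were chosen with earlier results of these data known. Named were members with a peak in all 9 libraries or in no NTC library, the 5 strongest without a KO peak, the 5 lowest adjusted p for METTL3-KO against the other KO groups, the lowest and highest NTC signal, and a list of members with known roles. Groups came from the labels, and no batch is given there. Alternatives covered pseudocount, filter, scaling, window, starts, peak threshold, replicate block and leaving out libraries. One list of markers of another cell type is not reported here.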

Additional observations from a re-analysis of the deposited data

Results flagged for a closer look

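METTL3-KO differed from the other KO groups by a test of the difference itself. A higher signal than in METTL14-KO and WTAP-KO was called at 33 mitochondrial ribosomal protein genes (43.4% of those tested, against 29.5% of all genes; limma, Benjamini-Hochberg over all genes tested). The smallest adjusted p-values were 2.84e-05 for MRPL50, 3.29e-05 for MRPL52, 3.49e-05 for MRPL16, 6.77e-05 for MRPL35 and 7.65e-05 for MRPL40, all large-subunit genes with a peak in both METTL3-KO libraries. MRPL50 entered the test through METTL3-KO alone. MRPL52, MRPL16 and MRPL40 were listed at 0 in METTL14-KO and WTAP-KO, and MRPL35 in WTAP-KO. Such equal values lower the spread, so the rank of these genes adds no support. The number called was 15 (20%, against 19.7% of all genes) without METTL3-KO replicate 1, the library with the higher signal at 49 of 55 members. Groups of 2 or 3 libraries were too small to test for single libraries that stand apart.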

How the results depend on the processing

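Centring libraries on the genes marked in all 9 gave 28, 36, 38 and 39 members lower in METTL3-KO, METTL14-KO, WTAP-KO and all KO groups (in place of 45, 60, 61 and 61), or 36.8%, 47.4%, 50% and 51.3% against 50.6%, 57.8%, 62.5% and 65.1% of all genes, and 14 higher in METTL3-KO than in the other KO groups (in place of 33), and turned the sign of 8 genes: MRPL11 (0.0661), MRPL2 (0.0801), MRPL4 (0.78), MRPL49 (0.36), MRPS12 (0.27), MRPS18A (0.0287), MRPS18B (0.0793) and MRPS28 (0.0916). It also ended the calls of MRPL3, MRPL10, MRPL12, MRPL21, MRPL37, MRPL45, MRPL46, MRPL47, MRPS11, MRPS22 and MRPS30 (adjusted p = 0.0556 to 0.545). With a 3 kb window MRPL14 turned to -3.87. With only peaks that reached the median NTC peak signal, 9 members were higher in METTL3-KO than in the other KO groups, of 52 members marked in NTC 26, 41, 48 and 26 lacked a peak in METTL3-KO, METTL14-KO, WTAP-KO and every KO library (50%, 78.8%, 92.3% and 50%, against 64.6%, 87.9%, 94.2% and 64.4% expected), and 58.7, 30.5, 12.5 and 4.5 were marked per library of NTC, METTL3-KO, METTL14-KO and WTAP-KO in that order. With the 5′-most start alone, 62.3, 55.5 and 28.0 were marked per NTC, METTL3-KO and WTAP-KO library. The causes were not tested.

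Leaving out 1 library at a time gave 38 to 55, 58 to 61, 56 to 62 and 60 to 62 members lower in METTL3-KO, METTL14-KO, WTAP-KO and all KO groups, and 15 to 43 higher in METTL3-KO than in the other KO groups. It gave 10 to 17, 27 to 41, 35 to 38 and 9 to 16 without a peak in METTL3-KO, METTL14-KO, WTAP-KO and every KO library. Per library, 64.5 to 66.0 (NTC), 59 to 62 (METTL3-KO), 29 to 45 (METTL14-KO) and 29 to 33 (WTAP-KO) were marked.

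With group means removed, the deviations of same-numbered replicates were little correlated over genes (12 pairs, correlations from -0.0578 to 0.095). Such a correlation cannot show a scale shift shared by whole libraries. Pairs between KO groups of 2 libraries also repeat each other, so the pairs are not separate checks. With the replicate number as a replicate block, 20 members were higher in METTL3-KO than in the other KO groups, and 40, 60, 59 and 61 were lower in METTL3-KO, METTL14-KO, WTAP-KO and all KO groups, and MRPL14 missed the threshold for all KO groups (adjusted p = 0.0567). Mean numbers marked per library were judged by the spread of their group, and other counts by a factor of 1.5. By these rules, 155 of all 176 counts under alternatives stayed close to the value reported. Some of these could not change, because the library left out was not used in the count. Of 816 values of 44 named genes, 790 had the same sign and call. With 5 or 20 strata of NTC signal in place of 10, the shares expected at equal NTC signal again lay above the members' shares. Weak peaks are limited by the unknown depth.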
